A study of Mus musculus with 34 samples.

Results

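The genes described here are 10 integrin chains of leukocytes: Itgax, Itgam, Itgal and Itgb2, which form the beta 2 integrins, and Itga4, Itga6, Itga9, Itgav, Itgb1 and Itgb5. They were chosen by symbol, and each was found in both deposited count tables, among 52550 genes in the main set and 25498 genes in a separate set named batch 1. An integrin is a surface receptor made of 1 alpha and 1 beta chain that holds a cell to matrix, to complement or to other cells. Leukocytes carry the beta 2 integrins, in which Itgb2 (CD18) pairs with Itgal (CD11a, LFA-1), Itgam (CD11b, complement receptor CR3) or Itgax (CD11c, complement receptor CR4). An alpha chain needs its beta chain to reach the surface. Itgam is a common marker of macrophages and neutrophils, and Itgax of dendritic cells and of some tissue macrophages, including lipid-laden ones.

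RNA was sequenced from macrophages grown from the bone marrow of mice, which were 10 to 14 weeks of age. Dnmt3aKO mice were Dnmt3afl/fl;Vav-Cre, Tet2KO mice Tet2fl/fl;Vav-Cre and Jak2VF mice Jak2V617F/WT;Vav-Cre, and the WT mice carried Vav-Cre alone, so that all 4 genotypes share the transgene. Vav drives the Cre recombinase in blood-forming cells and their progeny. Marrow was cultured for 6 days with M-CSF (10 ng/ml), the growth factor that makes macrophages. After a rest of 24 h the cells had low-density lipoprotein (LDL, 200 mg/dL) or vehicle for 24 h. The main set held 24 libraries, 3 for each genotype and treatment. Batch 1 held 10 libraries: 2 of Tet2KO with LDL, 3 of Tet2KO with vehicle, 2 of WT with LDL and 3 of WT with vehicle. Whether replicate libraries stem from different mice is not stated, so the p-values measure the spread between libraries, which may be technical.

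A library of the main set held 24105237 to 43904761 counts, and a library of batch 1 held 15171143 to 44449473. Levels are given as CPM, counts relative to the TMM-scaled library total. Dnmt3a stood at 27.6 to 36.6 CPM in the 6 Dnmt3aKO libraries and at 37.8 to 71.2 CPM in the other 18. A count over the whole gene does not check the Tet2KO label, since exons outside the floxed part still count: Tet2 stood at 19.3 to 40.4 CPM in Tet2KO libraries of the main set and at 12.9 to 42.4 CPM in the others. It checks nothing for the Jak2VF point mutation either. The macrophage marker Csf1r (the M-CSF receptor) stood at 1619 CPM or more in every library and Adgre1 (F4/80) at 492 CPM or more. Summed CPM of 7 stromal markers was 7633 to 16221 in the main set and 406 to 3361 in batch 1, and in batch 1 the highest were Tet2KO vehicle replicate 3 and Tet2KO LDL replicate 2. In the main set, Gfap, a marker of astrocytes, stood at 4.26 CPM in Tet2KO LDL replicate 3 and at 2.72 CPM in WT LDL replicate 3, against 0.111 to 0.713 CPM in the other 22 libraries; both were also left out together.

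Itgax and Itgam are neighbours on mouse chromosome 7 and both are read from the plus strand. In GRCm38 (GENCODE M21), Itgam (ENSMUSG00000030786) spans chr7:128062640-128118491 and Itgax (ENSMUSG00000030789) spans chr7:128129547-128150657, so 11055 bases lie between the end of Itgam and the start of Itgax. Itgal lies on the same chromosome at chr7:127296260-127335138, 727501 bases before Itgam, and their partner Itgb2 on chromosome 10 at chr10:77530252-77565708. The promoters of Itgax and Itgam are shown because these neighbours share their beta chain and yet had different values across the genotypes and with LDL. Each sequence is the plus strand from 250 bases before to 50 bases after the RefSeq start (GRCm38.p6), at chr7:128129300-128129599 for Itgax and chr7:128062390-128062689 for Itgam. Capitals mark matches, on either strand, to 4 motifs: GAGGAA (the core bound by PU.1, a macrophage lineage factor), TGACTCA (AP-1), TGTGGT (RUNX) and the NF-kB motif of 3 G, any 5 bases and 2 C.
Itgax: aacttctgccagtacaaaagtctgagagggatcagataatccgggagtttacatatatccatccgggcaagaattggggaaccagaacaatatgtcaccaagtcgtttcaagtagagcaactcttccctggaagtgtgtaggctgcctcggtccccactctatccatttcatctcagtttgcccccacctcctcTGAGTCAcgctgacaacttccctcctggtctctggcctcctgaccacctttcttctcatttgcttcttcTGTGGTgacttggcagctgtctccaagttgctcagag
Itgam: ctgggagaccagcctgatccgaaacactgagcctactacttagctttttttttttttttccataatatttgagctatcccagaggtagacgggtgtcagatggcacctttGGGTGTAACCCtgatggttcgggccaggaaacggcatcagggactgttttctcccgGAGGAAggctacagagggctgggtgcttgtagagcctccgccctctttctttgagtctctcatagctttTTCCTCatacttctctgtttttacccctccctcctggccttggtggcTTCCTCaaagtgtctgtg

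The Itgax promoter held 1 AP-1 match on the minus strand at -56 to -50 and 1 RUNX match on the plus strand at 14 to 19, counted from the RefSeq start. The Itgam promoter held 3 PU.1 core matches, which begin at -84 on the plus strand and at -15 and 33 on the minus strand, and 2 overlapping NF-kB matches that begin at -140 and -139. These letters are common: of 32817 RefSeq mouse promoters of this length, 28.3% held the PU.1 core, 5.2% the AP-1 motif, 16.8% the RUNX motif and 50.8% the NF-kB motif. Promoters were at hand for 7 of the 10 members. A match is a run of letters and not a bound site.

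Itgam carries a limit of its own. A second row of each table has the symbol Itgam under ENSMUSG00000108596, a gene that GENCODE M21 calls Gm49368, and it overlaps 3450 of the 5024 exon bases of Itgam (68.7%). This row stood at 0 to 0.31 CPM and was left apart. It was called higher with LDL in WT (log2 1.99, adjusted p 0.0352), on 8 to 11 reads per library with LDL, against 2 to 3 with vehicle. The counting tool is not given in the sources used here, so how reads that lie in both genes were counted is not known and the level of Itgam is uncertain.

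A member was called at an adjusted p under 0.05 in edgeR's quasi-likelihood test, with Benjamini-Hochberg adjustment over all genes tested, and each count of members stands beside the share of all genes called. With LDL against vehicle, 3 members rose in WT, beside 6.67% of all 19444 tested genes, and 2 fell, beside 7.58%. In Dnmt3aKO 4 rose (6.41% of all genes) and 2 fell (8.96%). In Tet2KO 2 rose (8.59%) and 1 fell (8.21%), and in Jak2VF 4 rose (8.45%) and 2 fell (9.73%). Itgam and Itgb2 rose and Itga6 fell in all 4 genotypes. Over the 10 members the median log2 change with LDL was 0.16 in Dnmt3aKO, 0.17 in Jak2VF, -0.04 in Tet2KO and -0.01 in WT, beside -0.02 over all genes in Dnmt3aKO and Jak2VF and values closer to 0 in Tet2KO and WT.

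Against WT with vehicle, 3 members rose in Dnmt3aKO (5.58% of all genes) and 1 fell (5.51%), 2 rose in Tet2KO (2.76%) and 2 fell in Jak2VF (5.26%). With LDL, 3 rose in Dnmt3aKO against WT (8.01%) and 2 fell (9.46%), and 1 rose in Tet2KO (1.28%). Libraries of Tet2KO and WT with LDL that carry the same title number deviated together, and a fit of these 6 libraries alone with that number as a block, chosen after seeing the data, gave 3 members that rose (11% of its 17270 genes) and 1 that fell (9.66%). In that paired fit Itgal rose (log2 0.83 ± 0.06, adjusted p 1.6e-05), as did Itga4 (log2 0.92 ± 0.08, adjusted p 6.8e-05) and Itgav (log2 0.30 ± 0.04, adjusted p 0.00146), and Itgb5 fell (log2 -0.35 ± 0.04, adjusted p 7.7e-04). The Tet2KO to WT ratio within a pair was 1.73 to 2.31 for Itga4, 1.19 to 1.30 for Itgav and 0.764 to 0.802 for Itgb5, on the same side of 1 in 3 of 3 pairs each. Without the pairs these 3 were not called (adjusted p 0.173, 0.473 and 0.132 in that order). The pair numbered 3 holds the libraries of highest Gfap. The submitters' descriptions number these libraries 4 (WT) and 6 (Tet2KO), so they give that pair no common number. The p-values of the paired fit do not allow for the choice of pairs from these same data. In Jak2VF with LDL 0 members were called against WT by edgeR (9.97% of all genes), while 3 had an unadjusted p under 0.05 and DESeq2 called 2. The 3 comparisons under a treatment share their WT libraries. Between mutants, Tet2KO against Dnmt3aKO gave 4 calls with vehicle (8.78% of all genes) and 3 with LDL (11.3%), Jak2VF against Dnmt3aKO gave 4 (19.2%) and 5 (15.6%), and Jak2VF against Tet2KO gave 6 (15.5%) and 1 (6.1%).

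Whether LDL acted differently in a mutant was tested as an interaction, and 0 of the 10 members were called by edgeR in any genotype. The background was 0.432% in Dnmt3aKO, 0.103% in Tet2KO and 2.47% in Jak2VF. At an unadjusted p under 0.05 there were 5 members in Jak2VF, 3 in Dnmt3aKO and 2 in Tet2KO, while DESeq2 called 2 in Jak2VF and 0 in the others. In batch 1, Tet2KO against WT with vehicle gave 1 member that rose, beside 0.73% of 15481 genes, and 2 that fell, beside 1.16%. With LDL 1 member fell there, beside 0.291%. LDL against vehicle gave 0 calls by edgeR among members in both genotypes of batch 1, where 0% of all genes were called; 3 members in each had an unadjusted p under 0.05 and DESeq2 called 1 in each. The interaction in batch 1 gave 0 calls (0% of all genes), with 2 members at an unadjusted p under 0.05 and 0 called by DESeq2.

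**Figure D1:**
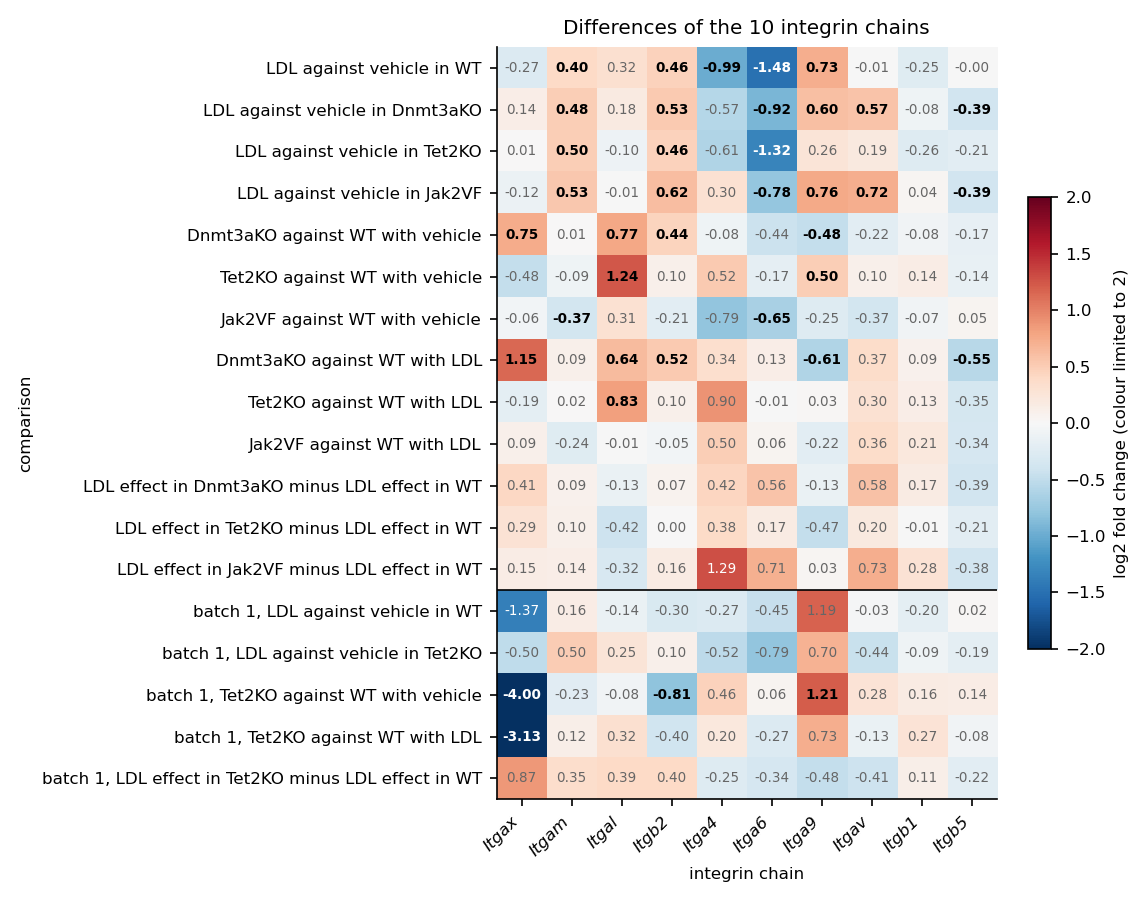
Heat map of the log2 fold change (colour and printed value, colour limited to 2 either way) of the 10 integrin chains (columns) by comparison (rows). Rows hold LDL over vehicle, mutant over WT, and the LDL effect in a mutant minus that in WT, which is a difference of log2 changes. The main set is above the line and batch 1 under it, and comparisons between mutants are not shown. Bold values have an adjusted p under 0.05 in edgeR. With LDL the Itgam and Itgb2 columns are positive and the Itga6 column negative in all 4 genotypes of the main set, and Itgax reaches -4.00 for Tet2KO against WT with vehicle in batch 1.

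Levels between genes were set side by side per kilobase of exon (CPM per kb), with exon lengths from GENCODE M21. In WT cells of the main set with vehicle, Itgax had the lowest level at 0.968 ± 0.140 CPM per kb (SD, n = 3), followed by Itga9 at 3.06 ± 0.12, Itga4 at 4.26 ± 1.20 and Itgal at 6.42 ± 0.05. Itga6 at 22.3 ± 3.7 and Itgav at 27.6 ± 4.1 came next and overlapped across libraries. Itgam stood at 48.1 ± 3.5, Itgb2 at 108 ± 3, Itgb5 at 138 ± 12 and Itgb1, the shared beta chain of many matrix receptors, at 273 ± 17 CPM per kb. Apart from Itga6 and Itgav, the libraries of neighbours in this order did not overlap, but the SDs of Itga9 and Itga4 met.

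The order was another in WT cells of batch 1 with vehicle. Itgax stood there at 19.3 ± 6.0 CPM per kb (SD, n = 3), beside Itgal at 21.5 ± 3.7 and Itgav at 24.9 ± 2.5, and the libraries of these 3 overlapped. Itgb2 was the highest member there at 337 ± 16. Itga9 at 2.14 ± 0.46 and Itga4 at 4.50 ± 0.62 were the lowest there. The 2 tables were fitted apart and no test was made across them, so this difference in level between the sets is given as values.

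Itgax, the alpha chain of CR4, was higher in Dnmt3aKO than in WT under both treatments in the main set. With vehicle it stood at 9.75, 6.70 and 6.95 CPM in Dnmt3aKO, against 4.45, 4.10 and 5.40 CPM in WT. Every Dnmt3aKO library lay above every WT library. The difference was 0.75 ± 0.16 on the log2 scale (SE), or 1.68-fold, with an adjusted p of 0.00254.

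With LDL, Itgax stood at 7.85, 9.28 and 8.54 CPM in Dnmt3aKO, against 3.67, 4.05 and 3.83 CPM in WT. The groups again did not overlap, and Itgax was 2.22-fold higher in Dnmt3aKO (log2 1.15 ± 0.16, adjusted p 3.7e-05). LDL itself gave no call for Itgax in Dnmt3aKO (log2 0.14 ± 0.15, adjusted p 0.647). The difference between the LDL effects in Dnmt3aKO and WT was 0.41 ± 0.23 with an adjusted p of 0.404. In the main set 84 to 403 reads per library lay on Itgax, so that its counting error is larger than that of the other members.

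Tet2KO and Jak2VF gave no call for Itgax against WT in the main set. With vehicle, Itgax stood at 3.05, 3.45 and 3.55 CPM in Tet2KO and at 3.76, 5.56 and 4.12 CPM in Jak2VF. The Tet2KO libraries lay below all 3 WT libraries, and the difference of -0.48 ± 0.17 had an adjusted p of 0.112; Jak2VF overlapped WT (log2 -0.06 ± 0.16, adjusted p 0.874). With LDL, Itgax stood at 2.98, 3.95 and 3.19 CPM in Tet2KO and at 4.12, 4.33 and 3.87 CPM in Jak2VF. Both overlapped WT, at log2 differences of -0.19 (adjusted p 0.684) and 0.09 (adjusted p 0.721).

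Set against each other, the mutants differed in Itgax. Tet2KO was below Dnmt3aKO 2.33-fold with vehicle (log2 -1.22 ± 0.16, adjusted p 1.9e-05) and 2.54-fold with LDL (log2 -1.34 ± 0.16, adjusted p 5.7e-06). Jak2VF was below Dnmt3aKO 1.74-fold with vehicle (adjusted p 9.9e-04) and 2.08-fold with LDL (adjusted p 5.7e-05). Jak2VF against Tet2KO was not called, at 0.42 with vehicle (adjusted p 0.0852), where the groups did not overlap, and at 0.28 with LDL (adjusted p 0.420).

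LDL gave no call for Itgax in any genotype of the main set. The 3 WT libraries with LDL lay below the 3 with vehicle, at a log2 difference of -0.27 ± 0.16 and an adjusted p of 0.304. In Tet2KO (log2 0.01, adjusted p 0.970) and Jak2VF (log2 -0.12, adjusted p 0.623) the treatments overlapped.

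In batch 1, Itgax was lower in Tet2KO than in WT. With vehicle it stood at 8.14, 5.37 and 3.92 CPM in Tet2KO, against 60.6, 116 and 101 CPM in WT. The highest Tet2KO library lay far below the lowest WT library. Itgax was 16.0-fold lower in Tet2KO (log2 -4.00 ± 0.40, adjusted p 0.00169), and between -4.32 and -3.77 on the log2 scale with any 1 of these 6 libraries left out. WT libraries of batch 1 thus held more Itgax than any library of the main set, while Tet2KO libraries of batch 1 lay within the range of 2.98 to 9.75 CPM of the main set, with no test made across the tables.

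With LDL in batch 1, Itgax stood at 4.91 and 3.29 CPM in Tet2KO, against 23.2 and 48.1 CPM in WT. It was 8.76-fold lower in Tet2KO (log2 -3.13 ± 0.48, adjusted p 0.0284). This call was lost without WT LDL replicate 2 (log2 -2.49, adjusted p 0.167), without Tet2KO LDL replicate 1 (log2 -3.45, adjusted p 0.145) and without Tet2KO LDL replicate 2 (log2 -2.87, adjusted p 0.255), each of which leaves 1 library in a group whose spread is then taken from the other groups. Within WT, both libraries with LDL lay below the 3 with vehicle, and the difference of -1.37 ± 0.40 was not called (adjusted p 0.741). The difference of the LDL effects in Tet2KO and WT was 0.87 ± 0.59 (not called).

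**Figure D2:**
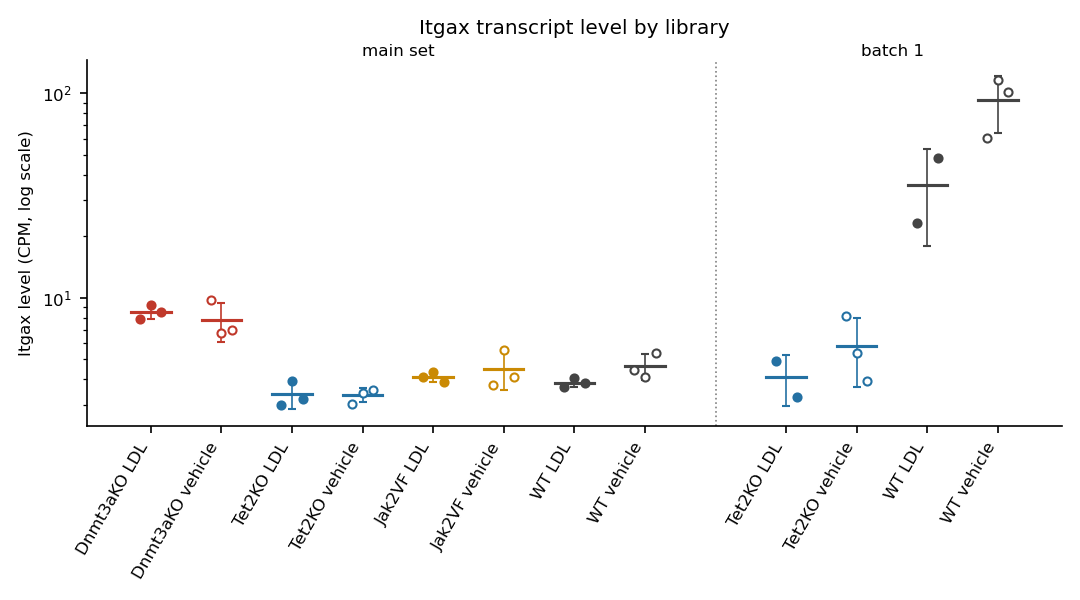
Itgax level (CPM, log axis) in each library by genotype and treatment, with the main set left of the dotted line and batch 1 right of it. Points are libraries (filled with LDL, open with vehicle), and lines with bars are the mean and SD of the group. Dnmt3aKO libraries lie at 6.70 to 9.75 CPM, above every WT library of the main set, and batch 1 WT libraries lie at 23.2 to 116 CPM, above every Tet2KO library.

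Markers of other myeloid cells moved beside Itgax in Dnmt3aKO. In bulk libraries more or fewer cells of a type and more or less RNA per cell cannot be told apart. Of all genes, 5.58% rose and 5.51% fell in Dnmt3aKO against WT with vehicle, and 2.76% rose and 2.72% fell in Tet2KO. Summed CPM of 12 neutrophil and granule markers was 670 to 725 in Dnmt3aKO with vehicle, against 199 to 256 in WT with vehicle, and 11 of the 12 rose. Jak2VF with vehicle had 560 to 723. Ly6g, the defining neutrophil surface marker, stayed at or below 0.290 CPM in the main set. Summed monocyte markers were 2011 to 2066 CPM in Dnmt3aKO and 1190 to 1308 CPM in WT with vehicle, and 6 of 6 rose. Tet2KO with vehicle had 1785 to 2071 CPM of them, with 3 higher and 1 lower. The 10 macrophage identity markers summed to 33001 to 34901 CPM in Dnmt3aKO and 24365 to 30318 CPM in WT with vehicle, apart, with 1 of 10 higher and 0 lower. With LDL these sums overlapped, at 28382 to 30969 CPM in Dnmt3aKO and 24827 to 33081 CPM in WT. Monocyte markers with LDL summed to 2110 to 2244 CPM in Dnmt3aKO and 1009 to 1429 CPM in WT, apart. Neutrophil and granule markers with LDL summed to 461 to 512 CPM in Dnmt3aKO and 151 to 242 CPM in WT, also apart.

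Of 10 dendritic cell markers, a cell type that Itgax also marks, 8 were tested. Their sum was 33.5 to 36.5 CPM in Dnmt3aKO, against 24.2 to 32.6 CPM in WT with vehicle, and 1 of the 8 rose (5.58% of all genes). Most of that sum was Cd83, at up to 28.7 CPM, while Flt3 stayed at or below 0.568 CPM, Siglech at or below 0.134 CPM and Cd209a at or below 0.0582 CPM in the main set. In batch 1 the sum was 28.9 to 44.9 CPM in Tet2KO and 29.6 to 34.8 CPM in WT with vehicle, and 0 of 8 were called by edgeR under either treatment, with 2 at an unadjusted p under 0.05 with vehicle and 1 with LDL. Neutrophil markers there summed to 48.1 to 77.5 CPM in Tet2KO and 127 to 149 CPM in WT with vehicle, and 2 of 11 tested fell (1.16% of all genes). Macrophage identity markers there summed to 23970 to 29820 CPM in Tet2KO and 31962 to 33137 CPM in WT with vehicle, apart as Itgax was. Of these 10, 1 was higher (0.73% of all genes) and 0 lower (1.16%). The part of any of these markers in the Itgax values was not tested.

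Itgb2, the beta chain that Itgax, Itgam and Itgal share, rose with LDL in all 4 genotypes of the main set. It stood at 425, 442 and 495 CPM in WT with LDL, against 337, 337 and 320 CPM in WT with vehicle. In Dnmt3aKO it stood at 644, 645 and 660 CPM with LDL, against 483, 419 and 447 CPM with vehicle. In neither genotype did the treatments overlap, and the rise was 1.37-fold in WT (log2 0.46 ± 0.07, adjusted p 5.7e-05) and 1.44-fold in Dnmt3aKO (adjusted p 8.2e-06). Itgb2 stood at 487, 474 and 502 CPM in Tet2KO with LDL and at 368, 344 and 353 CPM with vehicle, a 1.37-fold rise (adjusted p 5.7e-05). In Jak2VF it stood at 447, 447 and 423 CPM with LDL and at 286, 295 and 276 CPM with vehicle, a 1.54-fold rise (adjusted p 1.4e-06).

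Itgb2 was also higher in Dnmt3aKO than in WT, 1.36-fold with vehicle (adjusted p 1.2e-04) and 1.43-fold with LDL (adjusted p 2.2e-05). It was lower in Jak2VF than in Dnmt3aKO, 1.57-fold with vehicle (adjusted p 8.7e-07) and 1.48-fold with LDL (adjusted p 4.4e-06). Tet2KO was likewise below Dnmt3aKO, 1.27-fold with vehicle (adjusted p 0.00205) and 1.33-fold with LDL (adjusted p 2.6e-04).

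In batch 1, Itgb2 stood at 644, 610 and 508 CPM in Tet2KO with vehicle, against 981, 1076 and 1026 CPM in WT with vehicle. The groups did not overlap, and Itgb2 fell 1.75-fold in Tet2KO (log2 -0.81 ± 0.11, adjusted p 0.00841), a call lost without WT vehicle replicate 2 (adjusted p 0.0562). With LDL it stood at 672 and 586 CPM in Tet2KO, against 807 and 857 CPM in WT, without overlap and without a call (adjusted p 0.292). Itgb2 and Itgax thus were both lower in Tet2KO than in WT in batch 1, and both higher in Dnmt3aKO than in WT in the main set. They parted in Tet2KO of the main set with vehicle, where Itgb2 lay above every WT library (log2 0.10) and Itgax below (log2 -0.48), both without a call. With LDL against vehicle in the main set Itgb2 was called in every genotype and Itgax in none.

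Itgam, the alpha chain of CR3, rose with LDL in every genotype of the main set. In WT it stood at 320, 317 and 316 CPM with LDL, against 247, 256 and 222 CPM with vehicle. In Jak2VF it stood at 287, 261 and 261 CPM with LDL, against 203, 192 and 164 CPM with vehicle. The treatments did not overlap in either. The rise was 1.32-fold in WT (log2 0.40 ± 0.09, adjusted p 0.00264), 1.40-fold in Dnmt3aKO (adjusted p 3.5e-04), 1.41-fold in Tet2KO (adjusted p 3.0e-04) and 1.45-fold in Jak2VF (adjusted p 1.5e-04).

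With vehicle, Itgam was lower in Jak2VF than in WT, 1.30-fold (log2 -0.37 ± 0.09, adjusted p 0.00785). Without WT vehicle replicate 2 the adjusted p was 0.0607. Dnmt3aKO, at 312, 352 and 353 CPM with LDL and 252, 233 and 242 CPM with vehicle, was not called against WT, nor was Tet2KO, at 342, 318 and 305 CPM with LDL and 250, 216 and 216 CPM with vehicle. In batch 1, Itgam stood at 223 and 246 CPM in Tet2KO with LDL, at 150, 164 and 182 CPM in Tet2KO with vehicle, at 199 and 233 CPM in WT with LDL and at 195, 196 and 191 CPM in WT with vehicle. There Tet2KO with vehicle lay below WT and the LDL libraries lay above their vehicle libraries in both genotypes, and edgeR called none of these differences.

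Itgal, the alpha chain of LFA-1, was higher in Tet2KO and in Dnmt3aKO than in WT. With vehicle it stood at 104, 106 and 89.9 CPM in Tet2KO and at 70.2, 73.6 and 72.1 CPM in Dnmt3aKO, against 42.1, 41.9 and 42.5 CPM in WT. The 3 groups lay apart, with Tet2KO on top. The difference from WT was 2.37-fold in Tet2KO (log2 1.24 ± 0.11, adjusted p 2.5e-07) and 1.71-fold in Dnmt3aKO (log2 0.77 ± 0.11, adjusted p 3.7e-05), and Tet2KO exceeded Dnmt3aKO 1.39-fold (adjusted p 0.00587).

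With LDL, Itgal stood at 82.5, 101 and 96.5 CPM in Tet2KO and at 85.1, 83.0 and 77.2 CPM in Dnmt3aKO, against 44.2, 54.5 and 59.1 CPM in WT. Both mutants lay above WT, 1.77-fold in Tet2KO (adjusted p 5.8e-05, 0.141 with only these groups in the fit and 1.6e-05 with these groups paired by title number) and 1.55-fold in Dnmt3aKO (adjusted p 3.2e-04). Jak2VF was not called against WT, at 58.2, 46.8 and 51.5 CPM with LDL and 48.2, 49.6 and 59.4 CPM with vehicle. In batch 1, Itgal stood at 141, 126 and 135 CPM in Tet2KO with vehicle, against 122, 169 and 133 CPM in WT with vehicle, so that the groups overlapped and the difference seen in the main set was not called there.

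Itgal is also a gene of lymphocytes. Summed CPM of 8 T and NK cell markers was 62.7 to 66.6 in Tet2KO with vehicle, against 29.9 to 31.7 in WT with vehicle. Of these, 8 of 8 rose (2.76% of all genes). Most of that sum was Cd4, at up to 47.3 CPM, while Cd3e, the defining T cell marker, stayed at or below 1.29 CPM in every library of the main set. In Dnmt3aKO with vehicle the sum was 40.6 to 46.8, with 1 higher (5.58% of all genes) and 2 lower (5.51%). With LDL the sum was 22.9 to 29.3 in Tet2KO, against 17.5 to 20.1 in WT, with 2 of 8 higher (1.28% of all genes). In Dnmt3aKO with LDL it was 17.2 to 18.0, which overlapped WT. Summed CPM of 6 B cell markers with vehicle was 53.9 to 59.3 in Dnmt3aKO and 46.2 to 55.6 in Tet2KO, against 35.3 to 39.9 in WT. Of these, 4 of 6 rose in each (5.58% of all genes in Dnmt3aKO and 2.76% in Tet2KO). With LDL the B cell sum was 38.2 to 45.7 in Dnmt3aKO and 35.7 to 41.5 in Tet2KO, against 26.8 to 33.5 in WT. Both mutants thus lay above WT in it, as they did in Itgal. In batch 1, where Itgal was not called, the T and NK cell sum was 14.8 to 21.6 in Tet2KO and 7.07 to 9.99 in WT with vehicle. The part of these markers in the Itgal values was not tested.

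The makeup of the beta 2 alpha chains was read as each chain's share of summed Itgax, Itgam and Itgal in CPM per kb. Itgam was the largest share in every group, at 71.9% to 89.5% in the main set and at 43.8% to 69.3% in batch 1. With vehicle, Itgal made up 23.8% to 26.9% in Tet2KO, against 10.97% to 12.5% in WT of the main set. Itgax made up 2.37% to 3.23% in Dnmt3aKO, against 1.47% to 2.17% in WT with vehicle. In batch 1, Itgax made up 1.42% to 3.19% in Tet2KO, against 18.0% to 27.2% in WT with vehicle. With LDL its share was 0.968% to 1.40% in Tet2KO and 8.29% to 12.3% in WT of batch 1. The shares carry the uncertainty of the Itgam count, and no test was made on them.

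**Figure D3:**
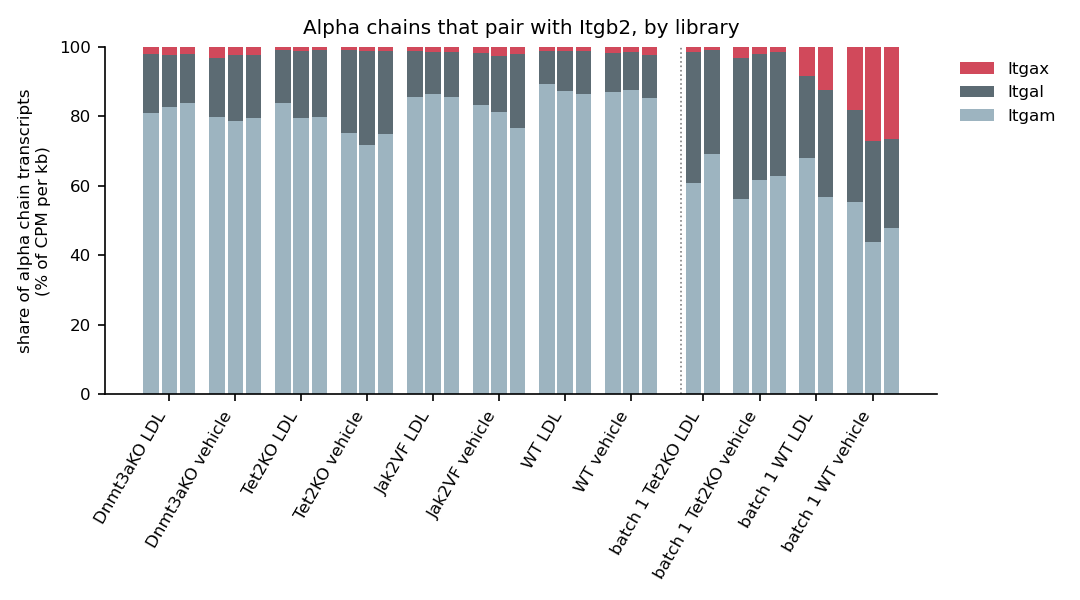
Share of Itgam, Itgal and Itgax in their sum (% of CPM per kb of exon), with 1 stacked bar per library, grouped by genotype and treatment, and batch 1 right of the dotted line. Itgam holds the largest share in every library, the Itgal share with vehicle is larger in Tet2KO (23.8% to 26.9%) than in WT (10.97% to 12.5%) of the main set, and the Itgax share is largest in WT of batch 1 (18.0% to 27.2% with vehicle).

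Itga6, the alpha chain of laminin receptors, had the largest log2 change with LDL of the 10 members in each genotype of the main set. It stood at 53.4, 87.9 and 74.4 CPM in WT with LDL, against 169, 199 and 236 CPM in WT with vehicle, and at 52.9, 83.6 and 78.3 CPM in Tet2KO with LDL, against 171, 186 and 178 CPM in Tet2KO with vehicle. All libraries with LDL lay below all with vehicle in both. The fall was 2.80-fold in WT (log2 -1.48 ± 0.18, adjusted p 3.4e-06), 2.49-fold in Tet2KO (log2 -1.32, adjusted p 1.8e-05), 1.89-fold in Dnmt3aKO (log2 -0.92, adjusted p 7.7e-04) and 1.71-fold in Jak2VF (log2 -0.78, adjusted p 0.00388).

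The smaller folds in Dnmt3aKO and Jak2VF did not pass the interaction test. Dnmt3aKO held 81.9, 76.1 and 77.5 CPM with LDL, against 161, 133 and 152 CPM with vehicle. Jak2VF held 78.9, 65.9 and 79.5 CPM with LDL, against 104, 125 and 156 CPM with vehicle. With LDL the libraries of the 4 genotypes overlapped, while with vehicle Jak2VF lay below WT 1.57-fold (log2 -0.65 ± 0.18, adjusted p 0.0215). That call was lost when WT vehicle replicate 2 or 3 or Jak2VF vehicle replicate 1 or 2 was left out, at adjusted p-values of 0.0692 to 0.145. In batch 1 Itga6 stood at 54.1 and 94.0 CPM in WT with LDL, against 86.6, 109 and 110 CPM with vehicle, and at 56.5 and 66.7 CPM in Tet2KO with LDL, against 124, 79.8 and 116 CPM with vehicle, without a call.

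Itga4, whose VLA-4 receptor binds VCAM1 and fibronectin, was called lower with LDL in WT, and no interaction was called for it. It stood at 22.3, 46.3 and 21.3 CPM in WT with LDL, against 44.5, 56.4 and 77.7 CPM with vehicle, and 1 LDL library lay above the lowest vehicle library. The change was -0.99 ± 0.32 on the log2 scale (adjusted p 0.0397). It was not called without WT vehicle replicate 2 or 3 or WT LDL replicate 1 or 3 (adjusted p 0.0795 to 0.214), nor without both libraries of highest Gfap (adjusted p 0.187). Without a call, Itga4 also lay lower with LDL in Dnmt3aKO (log2 -0.57, adjusted p 0.272), at 43.7, 35.8 and 34.5 CPM against 62.1, 48.4 and 58.2 CPM, apart. In Tet2KO the change was -0.61 (adjusted p 0.205) and in Jak2VF 0.30 (adjusted p 0.533), with overlap in both. The interaction had adjusted p 0.655 in Dnmt3aKO, 0.9996 in Tet2KO and 0.0959 in Jak2VF. In Jak2VF it was 1.29 ± 0.45 on the log2 scale (unadjusted p 0.00891 in edgeR), so a difference from WT is not excluded. With vehicle, Itga4 stood at 22.9, 30.3 and 50.2 CPM in Jak2VF, against 98.9, 74.3 and 83.1 CPM in Tet2KO, without overlap. It was 2.48-fold lower in Jak2VF (adjusted p 0.00858). The spread within groups was wide for Itga4, as in Tet2KO with LDL at 38.7, 80.5 and 49.1 CPM, and Tet2KO was called above WT with LDL in the paired fit (adjusted p 6.8e-05) and not without pairs (adjusted p 0.173).

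Itga9, the alpha chain of a receptor for tenascin and osteopontin, was called higher with LDL in 3 genotypes of the main set. It stood at 35.4, 41.5 and 40.1 CPM in WT with LDL, against 22.5, 24.2 and 24.0 CPM with vehicle. In Dnmt3aKO it stood at 26.7, 23.8 and 26.4 CPM with LDL, against 18.0, 15.9 and 16.9 CPM with vehicle. In Jak2VF it stood at 35.8, 31.9 and 33.0 CPM with LDL, against 17.4, 19.4 and 22.6 CPM with vehicle. In each the treatments lay apart, and the rise was 1.65-fold in WT (log2 0.73 ± 0.11, adjusted p 3.7e-05), 1.51-fold in Dnmt3aKO (adjusted p 3.6e-04) and 1.69-fold in Jak2VF (adjusted p 2.5e-05). Tet2KO held 34.0, 44.9 and 40.4 CPM with LDL, against 32.2, 36.1 and 31.6 CPM with vehicle, where the treatments overlapped and no call was made. The change there was 0.26 on the log2 scale (adjusted p 0.105), and its difference from the WT change was not called (adjusted p 0.346).

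Itga9 took opposite directions in 2 mutants with vehicle. It fell 1.39-fold in Dnmt3aKO against WT (log2 -0.48 ± 0.11, adjusted p 0.00428) and rose 1.41-fold in Tet2KO against WT (log2 0.50 ± 0.11, adjusted p 0.00532). Tet2KO against Dnmt3aKO was 1.96-fold higher with vehicle (adjusted p 1.6e-06) and 1.55-fold higher with LDL (adjusted p 2.7e-04). With LDL Itga9 was 1.52-fold lower in Dnmt3aKO than in WT (adjusted p 4.3e-04), while Tet2KO overlapped WT (log2 0.03, adjusted p 0.927). In batch 1 with vehicle it stood at 26.8, 36.4 and 50.9 CPM in Tet2KO, against 20.5, 14.1 and 14.8 CPM in WT, again apart, and rose 2.32-fold (log2 1.21 ± 0.24, adjusted p 0.0376). That call was lost with 5 of the 6 libraries left out in turn (adjusted p 0.0664 to 0.181), and without Tet2KO vehicle replicate 3, the library with the highest stromal sum, the change was 0.95 (adjusted p 0.0664). With LDL in batch 1 it stood at 58.6 and 65.1 CPM in Tet2KO, against 32.8 and 41.7 CPM in WT, apart but without a call. In both genotypes of batch 1 the libraries with LDL lay above those with vehicle. The LDL change was 0.70 in Tet2KO (adjusted p 0.526) and 1.19 in WT (adjusted p 0.429), without a call.

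Itgav and Itgb5 pair into a receptor for vitronectin that takes part in the uptake of dying cells. Itgav rose with LDL in Dnmt3aKO, at 385, 357 and 393 CPM with LDL, against 263, 249 and 254 CPM with vehicle (1.48-fold, adjusted p 0.0163). It rose in Jak2VF, at 409, 320 and 402 CPM with LDL, against 205, 217 and 265 CPM with vehicle (1.65-fold, adjusted p 0.00309). In both the treatments lay apart, whereas they overlapped in WT, at 240, 364 and 278 CPM with LDL and 252, 298 and 339 CPM with vehicle, and in Tet2KO, at 286, 441 and 361 CPM with LDL and 328, 352 and 273 CPM with vehicle. The Dnmt3aKO call was lost at adjusted p-values of 0.0521 to 0.0534 without Dnmt3aKO vehicle replicate 2 or 3 or Dnmt3aKO LDL replicate 3.

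Itgb5 was called lower with LDL in the same 2 genotypes in which its partner Itgav was called higher. In Tet2KO neither was called, at -0.21 for Itgb5 (adjusted p 0.230) and 0.19 for Itgav (adjusted p 0.466), and no interaction was called for either gene. Itgb5 stood at 321, 344 and 339 CPM in Dnmt3aKO with LDL, against 449, 438 and 429 CPM with vehicle (log2 -0.39 ± 0.11, adjusted p 0.0216). In Jak2VF it stood at 365, 431 and 371 CPM with LDL, against 563, 526 and 436 CPM with vehicle (log2 -0.39, adjusted p 0.0223). Libraries with LDL lay below those with vehicle in both. In each genotype the call was lost in several of the fits that leave out 1 library, in Dnmt3aKO for vehicle replicates 1 and 2 and LDL replicates 1, 2 and 3 (adjusted p 0.0568 to 0.0950) and in Jak2VF for vehicle replicates 1 and 2 and LDL replicates 1 and 3 (adjusted p 0.0660 to 0.106). WT held 556, 414 and 503 CPM with LDL, and Itgb5 was 1.47-fold lower in Dnmt3aKO than in WT with LDL (log2 -0.55, adjusted p 0.00199). In batch 1 Tet2KO, LDL gave -0.19 for Itgb5 and -0.44 for Itgav, without a call. Summed stromal markers also were lower with LDL, at 7773 to 8567 against 10704 to 11239 CPM in Dnmt3aKO and 11115 to 11877 against 12157 to 16221 CPM in Jak2VF. They lay apart in Tet2KO too, at 7633 to 9909 against 10933 to 13132 CPM, and overlapped in WT. Their part was not tested.

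Itgb1, the beta chain of many matrix receptors, was the member with the highest level per length in the main set and was called in no comparison. It ranged from 819 to 1349 CPM over the 24 libraries and from 487 to 723 CPM over the 10 of batch 1. Summed stromal markers also were higher in the main set, at 7633 to 16221 CPM against 406 to 3361 CPM in batch 1. Their part in the Itgb1 level was not tested. In WT of the main set Itgb1 stood at 819, 1021 and 979 CPM with LDL, against 1036, 1133 and 1171 CPM with vehicle, where the groups lay apart.

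**Figure D4:**
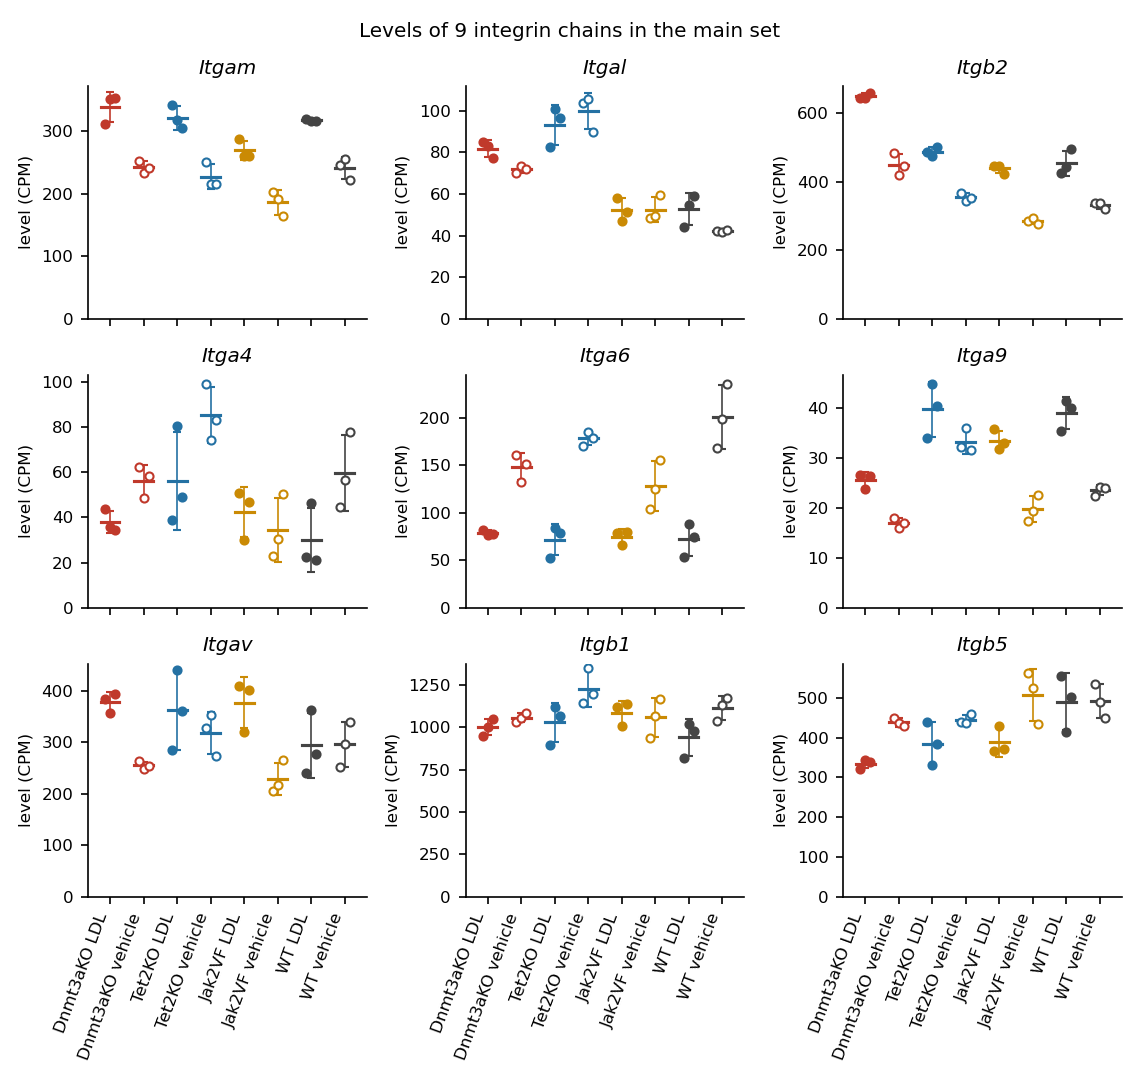
Levels (CPM, linear axes from 0) of the 9 members other than Itgax in the main set, by genotype and treatment. Points are libraries (filled with LDL, open with vehicle), and lines with bars are the mean and SD of 3 libraries. Itga6 points with LDL lie below those with vehicle in all 4 genotypes, and Itgal points of Tet2KO and Dnmt3aKO lie above those of WT.

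Of 17 other integrin chains listed, 16 were tested in the main set and 15 in batch 1. With LDL 4 rose (6.67% of all genes) and 0 fell (7.58%) in WT, and 4 rose (6.41%) and 3 fell (8.96%) in Dnmt3aKO. In Tet2KO 3 rose (8.59%) and 3 fell (8.21%), and in Jak2VF 2 rose (8.45%) and 4 fell (9.73%). Itga1, the alpha chain of a collagen receptor, rose in all 4 genotypes, with a log2 change of 1.75 in WT (adjusted p 1.8e-07), 1.93 in Dnmt3aKO, 1.44 in Tet2KO and 1.74 in Jak2VF. It stood at 79.2 to 116 CPM in WT with LDL, against 27.0 to 29.8 CPM with vehicle. Itgb7, a partner of Itga4, also rose in all 4, by 1.69 in WT (adjusted p 3.8e-06), 1.11 in Dnmt3aKO, 1.57 in Tet2KO and 1.39 in Jak2VF. In batch 1 edgeR called 0 of the 15 in any comparison, and at most 6 had an unadjusted p under 0.05, in Tet2KO against WT with vehicle.

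Against WT with vehicle, 3 of the 16 other chains rose in Dnmt3aKO (5.58% of all genes) and 1 fell (5.51%), 5 rose in Tet2KO (2.76%) and 1 fell (2.72%), and 4 rose in Jak2VF (4.29%) and 1 fell (5.26%). Itga2b, the alpha chain of the platelet fibrinogen receptor, stood at 19.3 to 25.0 CPM in Jak2VF, against 4.21 to 7.12 CPM in WT with vehicle (log2 1.94, adjusted p 3.2e-06). Itgb2l, a gene related to Itgb2, stood at 2.85 to 3.25 CPM in Dnmt3aKO, 2.80 to 3.40 CPM in Jak2VF and 0.103 to 0.284 CPM in Tet2KO, against 0.763 to 0.928 CPM in WT. It rose in Dnmt3aKO (log2 1.78, adjusted p 1.3e-06) and Jak2VF (log2 1.81, adjusted p 3.6e-06) and fell in Tet2KO (log2 -2.30, adjusted p 1.2e-05). Summed neutrophil markers also were higher than in WT in Dnmt3aKO and Jak2VF, and lower in Tet2KO at 81.2 to 103 CPM, and their part was not tested.

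Genes around the integrins were read from lists. Of 18 ligands and counter-receptors tested, 6 rose with LDL in WT (6.67% of all genes) and 4 in Tet2KO (8.59%). In Dnmt3aKO 7 rose (6.41%), and in Jak2VF 7 rose (8.45%) and 1 fell (9.73%). The median log2 change was 0.25 in WT, 0.11 in Tet2KO, 0.17 in Dnmt3aKO and 0.26 in Jak2VF. C3, whose fragment iC3b is bound by CR3 and CR4, stood at 158 to 189 CPM in WT with LDL, against 72.9 to 86.0 CPM with vehicle (log2 1.13, adjusted p 1.2e-07), and rose in Dnmt3aKO (log2 0.86), Tet2KO (log2 1.11) and Jak2VF (log2 0.51). F11r (JAM-A), a ligand of LFA-1, was higher than in WT with vehicle in Dnmt3aKO (log2 0.73, adjusted p 3.9e-07), Tet2KO (log2 0.81, adjusted p 2.5e-07) and Jak2VF (log2 0.53, adjusted p 5.4e-05). Spp1 (osteopontin), a ligand of Itga9 and Itgav receptors, was lower with vehicle in Tet2KO (log2 -1.26, adjusted p 3.0e-05) and Jak2VF (log2 -0.89, adjusted p 0.00112) than in WT.

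Of 8 membrane partners tested, 4 rose with LDL in WT (6.67% of all genes) and 0 fell (7.58%), and 2 rose (6.41%) and 1 fell (8.96%) in Dnmt3aKO. In Tet2KO 3 rose (8.59%) and 0 fell (8.21%), and in Jak2VF 2 rose (8.45%) and 1 fell (9.73%). Plaur, the urokinase receptor, which associates with CR3 on the same membrane, rose in all 4, at log2 0.88 in WT (adjusted p 3.9e-05), 1.30 in Dnmt3aKO, 1.18 in Tet2KO and 0.77 in Jak2VF. It stood at 55.9 to 73.8 CPM in WT with LDL, against 30.7 to 42.7 CPM with vehicle. Cd9, a tetraspanin, also rose in all 4, by 0.44 in WT, 0.76 in Dnmt3aKO, 0.77 in Tet2KO and 0.43 in Jak2VF.

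Of 14 genes of integrin signalling, 3 rose (6.67% of all genes) and 2 fell (7.58%) with LDL in WT. In each mutant 4 rose (6.41% to 8.59% of all genes) and 1 fell (8.21% to 9.73%). Fgr, a Src-family kinase downstream of beta 2 integrins, stood at 18.5 to 22.5 CPM in WT with LDL, against 10.3 to 12.5 CPM with vehicle (log2 0.81, adjusted p 3.5e-06). With vehicle it stood at 26.9 to 31.1 CPM in Dnmt3aKO and 22.3 to 25.6 CPM in Tet2KO, above WT (log2 1.30, adjusted p 1.3e-08 and log2 1.04, adjusted p 6.5e-07). Syk, a kinase recruited by beta 2 integrins, rose with LDL in all 4 genotypes, by 0.34 in WT (adjusted p 0.00132), 0.33 in Dnmt3aKO, 0.28 in Tet2KO and 0.41 in Jak2VF.

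Integrins are switched on from inside the cell by talin, kindlin and the GTPase Rap1. Of 10 activation genes tested, 0 were called by edgeR with LDL in WT and in Dnmt3aKO (4 and 1 at an unadjusted p under 0.05). Of all genes, 6.67% rose and 7.58% fell in WT, and 6.41% rose and 8.96% fell in Dnmt3aKO. In Tet2KO 1 of the 10 rose (8.59%), and in Jak2VF 1 rose (8.45%) and 1 fell (9.73%). Against WT with vehicle 4 of the 10 fell in Jak2VF, beside 5.26% of all genes, 1 fell in Tet2KO (2.72%) and 1 rose in Dnmt3aKO (5.58%), namely Rasgrp2, an exchange factor that activates Rap1, at 14.6 to 16.5 CPM in Dnmt3aKO, against 7.63 to 8.40 CPM in WT (log2 0.98, adjusted p 4.7e-06). Of 15 adhesion linkers, 0 rose and 5 fell in Dnmt3aKO against WT with LDL (9.46% of all genes), among them Parvg, a leukocyte parvin, at 22.0 to 22.9 CPM in Dnmt3aKO, against 37.2 to 43.8 CPM in WT (log2 -0.85, adjusted p 2.0e-06). The median over these 15 was -0.18, beside -0.03 over all genes. Of 8 genes of inhibition and traffic, 1 or 2 rose and at most 1 fell with LDL in each genotype, beside 6.41% to 8.59% and 7.58% to 9.73% of all genes.

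The genes whose level was most like that of Itgax were found by Pearson correlation of log2(CPM + 0.5) over all libraries of a set, among genes of at least 5 CPM on average. Over the 24 libraries of the main set they were Gpt2 (r 0.888), B3gnt3 (0.880), Wdr91 (0.864), Lipo3 (0.864), Tnfrsf21 (0.859) and Mpzl1 (0.855). Gpt2 stood at 35.1 to 39.5 CPM in Dnmt3aKO, against 19.3 to 21.3 CPM in WT with vehicle. B3gnt3 stood at 53.4 to 56.3 CPM in Dnmt3aKO, against 21.5 to 23.5 CPM in WT. Both thus carry the step between Dnmt3aKO and the rest, and libraries of 1 group share that step.

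Over the 10 libraries of batch 1, the genes most like Itgax were Matk (r 0.986), Dio2 (0.986), Egr2 (0.986), Fabp7 (0.984), Pomk (0.983) and St6galnac4 (0.982), none of them among the 6 of the main set, where Fabp7 ranked 12 of 10252 genes (r 0.844). Dio2 stood at 1.19 to 3.09 CPM in Tet2KO with vehicle, against 22.4 to 30.5 CPM in WT with vehicle. Egr2 stood at 2.52 to 8.03 CPM in Tet2KO with vehicle, against 33.1 to 43.9 CPM in WT with vehicle. Among the members, Itgb2 was the one most like Itgax in batch 1 (r 0.970) and had r 0.467 in the main set, while Itga9 ran opposite to it in both (r -0.845 in batch 1 and -0.603 in the main set). Here too libraries of the same group share the step between genotypes, so these r values are not separate from the differences given above.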

How the data were processed

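The values deposited are whole-number read counts of genes. Their file names say normalized, yet library sums within a table differ up to 1.82-fold (main set) and 2.93-fold (batch 1), so they were treated as unscaled. The submitters' processing notes name mm10; the sources used here do not give the aligner, counter or annotation. The labels name both ribosomal RNA depletion and poly-A selection. All 34 libraries entered, with each table fitted by itself. A gene was tested if 3 libraries (2 in batch 1) reached 10 counts, which left 19444 and 15481 genes. Tests used the two-sided quasi-likelihood F test of edgeR 4.0.16 in R 4.3.3 with TMM scaling and Benjamini-Hochberg adjustment over the genes of a comparison. Each gene had 1 mean for each group and 1 spread shared by the groups of a set. The common biological coefficient of variation was 0.137 in the main set and 0.199 in batch 1. Tested on simulated data, LDL in WT recovered 82% of 1.5-fold changes (50 genes among 19059). Batch 1 Tet2KO against WT with vehicle recovered 32% of 1.5-fold and 70% of 2-fold changes (among 15122). The changed genes had an expected count of at least 50 and the simulated libraries varied independently, so these rates hold for that setting alone. Coordinates and exon lengths came from GENCODE M21 (GRCm38) and promoters from RefSeq GRCm38.p6. Replicates differed by more than counting noise, so none was counted as a copy of another, which does not show that they are independent.

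Members and gene lists were chosen with earlier results of these data known. All 10 members are named, from each list up to 4 genes called in the most comparisons of the main set, and the 6 genes most like Itgax in the main set and, by the same measure, in batch 1. Marker genes were named for the cell type they define. Replicate numbers in the labels were read as pairs only for Tet2KO against WT with LDL in the main set. There, deviations of libraries with the same title number correlated at 0.72, 0.72 and 0.50. A fit of these 2 groups alone with that number as a block was added after the data were seen. Jak2VF against WT with vehicle, at 0.60, 0.0045 and 0.62, was not paired. Alternatives were DESeq2 1.42.0, its size factors in edgeR, library totals alone, no filter, only the groups compared, a replicate block, each library left out, and both libraries of highest Gfap left out.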

Additional observations from a re-analysis of the deposited data

Results flagged for a closer look

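Itgb2 differed in direction between the sets in comparisons that both hold. With LDL against vehicle in WT its log2 change was 0.46 in the main set, where every library with LDL lay above every library with vehicle, and -0.30 in batch 1, where both libraries with LDL lay below the 3 with vehicle and no call was made (adjusted p 0.9997). For Tet2KO against WT with vehicle it was 0.10 in the main set, not called (adjusted p 0.509), and -0.81 in batch 1, again with the libraries of the groups apart in both. The difference between the sets was not tested, since the tables were fitted apart, and the labels give batch 1 no description that would tell its preparation from that of the main set.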

How the results depend on the processing

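Of the 18 Itgax comparisons, DESeq2, its size factors and the absence of a filter changed no direction and no call. Itgax for LDL in Tet2KO, which was not called, turned to -0.059 with library totals alone. Members called in Jak2VF against WT with vehicle numbered 1 with library totals and 0 with only the groups compared, and with LDL 2 by DESeq2. For the Jak2VF interaction they numbered 2 by DESeq2 and 3 without a filter, for Tet2KO against WT with LDL 2 without a filter and 0 with only the groups compared, and for LDL in batch 1 DESeq2 gave 1 in WT and 1 in Tet2KO. With the title number as replicate block, batch 1 Tet2KO against WT with LDL gave 0 members called and Itgax at -3.07 (adjusted p 0.0811), and with only the groups compared 0 members and -3.13 (adjusted p 0.0827). The replicate block also ended the calls of Itga9 in batch 1 with vehicle (title number, adjusted p 0.0858) and Itga4 with LDL in WT (description number, adjusted p 0.0766), and no other call of a member with LDL, against WT or in batch 1; of 23 calls between mutants it ended 0 with either number. Added after the data were seen, a fit of the Tet2KO and WT libraries with LDL alone with their title number as replicate block gave 4 members called. Library totals ended the calls of Itgav with LDL in Dnmt3aKO (adjusted p 0.0504) and Itga6 in Jak2VF with vehicle (adjusted p 0.0638). Fitting only the groups compared ended 6 calls of members other than Itgax with LDL or against WT.

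With 1 library left out, Itgax ranged from -3.55 to -2.49 in batch 1 Tet2KO against WT with LDL, from -0.22 to 0.074 in Jak2VF against WT with vehicle, from -0.25 to 0.045 for LDL in Jak2VF and from -0.12 to 0.10 for LDL in Tet2KO. Members called ranged from 1 to 3 in batch 1 Tet2KO against WT with vehicle and 0 to 1 with LDL, 0 to 4 in Jak2VF against WT with vehicle and 0 to 3 with LDL, 1 to 3 in Tet2KO against WT with LDL, 3 to 5 for LDL in Tet2KO, 0 to 1 for the Dnmt3aKO interaction and 0 to 4 for the Jak2VF interaction. For LDL in Dnmt3aKO they ranged from 4 to 5, below the 6 called with all libraries, and for LDL in WT from 4 to 5, beside 5 with all. The causes were not tested. Depth limits Itgax, which had 84 to 403 reads per library in the main set and 80 to 2323 in batch 1.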
